A study of Mus musculus with 12 samples.

Results

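A stretch of 3 Mb near the distal end of mouse chromosome 10 carries Gli1, Cdk4 and Ddit3, and its DNA content was compared here between 11 malignant peripheral nerve sheath tumours. Its limits were set at whole megabases of the mm9 build, and its probes ran from base 125404379 to base 127999573. It was covered by 114 of 42404 probes, which carried 71 gene names. Of 10 main members, 9 had a probe (Gli1, Ddit3, Kif5a, Os9, Dctn2, B4galnt1, Avil, Cyp27b1 and Tspan31), by 14 probes in all, and no probe carried the name Cdk4. The stretch was chosen by its raised log2 ratios in tumour A18, so every A18 value below is a description with no test, and tests were run over the other 10 tumours.

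Cultured tumour cells from P0-GGFβ3 transgenic mice, in which the myelin protein zero promoter drives GGFβ3, an isoform of neuregulin-1, in Schwann cells, were compared with wild-type C57BL/6J Schwann cells by comparative genomic hybridisation on 12 2-colour arrays. All tumours carried the transgene. Tumours A18, 231 Trig, A202, A292, A382, A390 and A394 (7) arose on a background of C57BL/6J x SJL/J, called mixed here. B76, B86, B91 and B96 (4) arose on C57BL/6J. Tumour cultures were started with forskolin and NRG1β and then kept without them, while the reference Schwann cells stayed in both. The tumour cultures were at passages 5 to 13 as titled, with A18 at passage 11 and B76 at passage 13 (231 Trig carried no passage). For A382 the mean of its passage 8 and passage 9 arrays was used. Values are log2 of tumour over reference signal, centred on each array's autosomal median, and a gene's value is the mean of its probes. Tumour DNA was always in the Cy5 channel, so dye and tumour cannot be told apart. A18, 231 Trig, B86 and A202 shared slide 1, which was read on another scanner than slides 2 and 3. A value averages all cells of a culture, so the share of cells with a change and its size per cell cannot be told apart. Each tumour was 1 culture, and p-values measure only the spread between these cultures.

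The genes lie together in the human genome as well, at 12q13-q14. Human sarcomas and gliomas are known to amplify this region, which brings extra copies of CDK4, often with MDM2 from a neighbouring region. CDK4 binds D-type cyclins and phosphorylates the retinoblastoma protein at entry into the cell cycle, and GLI1 is the zinc-finger transcription factor at the end of the hedgehog pathway, taking its name from glioma, where it was found amplified.

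The probes on which the account turns are given here as designed, 5′ to 3′, with CG dinucleotides in capitals. They are the Gli1 probe, the probes on either side of Cdk4 in RefSeq gene order (Marchf9 and Tspan31), both Ddit3 probes, and the probes at the edges of the raised segment of A18 (Lrig3 and Hsd17b6 inside, Prim1 outside).
Gli1, chr10:126770197-126770252: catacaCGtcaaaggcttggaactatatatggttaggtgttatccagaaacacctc
Marchf9, chr10:126495076-126495135: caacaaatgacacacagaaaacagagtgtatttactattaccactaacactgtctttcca
Tspan31, chr10:126504341-126504400: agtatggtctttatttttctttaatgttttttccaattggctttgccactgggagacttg
Ddit3, chr10:126732748-126732807: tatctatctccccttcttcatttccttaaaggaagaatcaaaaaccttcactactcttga
Ddit3, chr10:126733299-126733356: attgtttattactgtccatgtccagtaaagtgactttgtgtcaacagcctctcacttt
Lrig3, chr10:125404379-125404438: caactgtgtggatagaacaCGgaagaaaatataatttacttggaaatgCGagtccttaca
Hsd17b6, chr10:127428004-127428063: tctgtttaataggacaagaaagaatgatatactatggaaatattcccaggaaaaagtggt
Prim1, chr10:127458722-127458779: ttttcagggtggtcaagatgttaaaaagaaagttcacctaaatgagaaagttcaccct
All 114 probes of the stretch had 1 perfect match by the file's own count, were 45 to 60 bases long, and 113 of them were well above background on all arrays. Their median GC content was 36.7%, the same as that of the rest of chromosome 10. The strand of the probes and their position relative to exons were not used here, because no mm9 annotation was given.

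In A18 the raised DNA was one segment with a mean of 1.22 over 74 measured probes, from the first Lrig3 probe at 125404379 to the Hsd17b6 probe at 127428063, or 2024 kb. Lrig3 encodes a membrane protein with leucine-rich repeats and Hsd17b6 a hydroxysteroid dehydrogenase. Inside the segment the largest gap between probes was 805 kb, between Lrig3 and Atp23. The DNA in that gap was not measured, so whether the raised DNA runs through it cannot be told. The probe before the segment, at 124775675 and without a gene name, read -0.46, and the Slc16a7 probe before that read 0.21. On the distal side the Hsd17b6 probe read 0.93 and the first probe of Prim1, the DNA primase catalytic subunit, read -0.17. The level therefore fell to that of the chromosome across 30.7 kb on the distal side, while on the proximal side the edge lies somewhere in a gap of 629 kb without probes, which also holds the lower limit of the stretch. At its upper limit neither side was raised: the last probe inside, of Pa2g4, read -0.23 and the first outside, of BC036180, read 0.04.

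**Figure D1:**
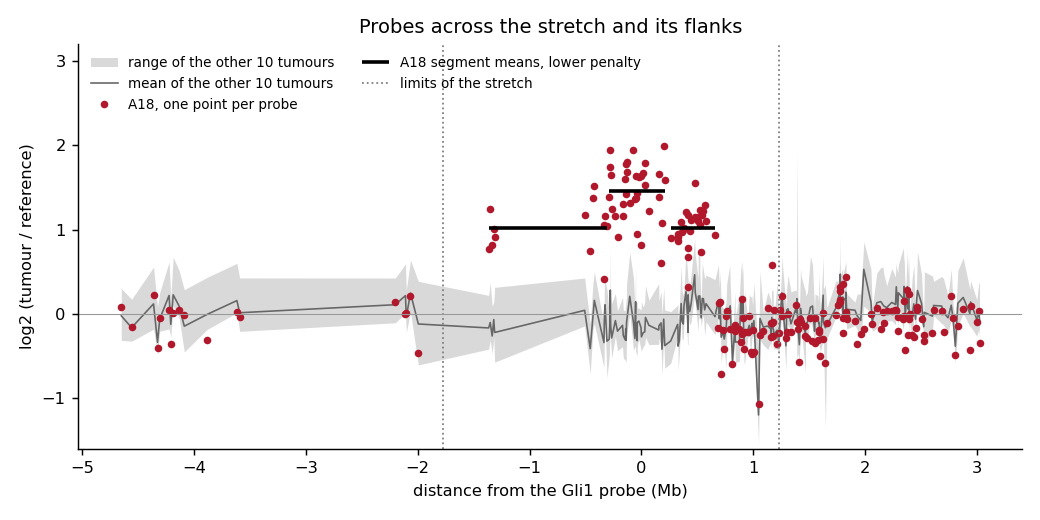
Log2 ratio of each probe (vertical axis) against its distance from the Gli1 probe in Mb (horizontal axis). Red points are A18, the grey line and band are the mean and range of the other 10 tumours, black bars are A18 segment means at the lower penalty of 20, and dotted lines are the limits of the stretch. A18 stands near 1.02, 1.45 and 1.02 in 3 steps. It falls to -0.17 at the first Prim1 probe, where the other 10 tumours range from -0.05 to 0.58.

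Of the 74 measured probes in that segment, 72 read 0.5 or more in A18 and 73 read above all 10 other tumours. Of the 38 measured probes of the stretch beyond it 1 read 0.5 or more, and the 24 genes from Prim1 to Pa2g4 ranged from -0.66 to 0.17 in A18. Of the 47 genes inside, 45 read 0.5 or more and 1 had no measured probe in A18. The only one below 0.5 was Ctdsp2, a phosphatase that acts on RNA polymerase, at 0.41. Across all genes of A18, 9.42% read 0.5 or more, and 3.71% outside the broadly raised chromosome 11, and A18 was the highest of the 11 tumours for 10.1%, as it was for all 9 members. The rule used these values, so nothing is read from the difference.

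Among autosomal segments of A18 outside chromosome 11, only 3 had a mean of 0.5 or more. The raised segment within the stretch had the highest mean, at 1.22. Close to it, at 1.21, was a segment of chromosome 7 from 12807782 to 14904306, with Zfp606 and Zfp329. The third, of 5 probes on chromosome 4 with Bspry and Alad, averaged 0.81.

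The segment was not level. When the penalty for a break was lowered from 40 to 20 noise variances, it split into 3 parts. The first, from Lrig3 to Tsfm, averaged 1.02 over 13 probes. The middle part, from Mettl1 to the first Lrp1 probe (126482345 to 126978849, 497 kb), averaged 1.45 over 34 probes and held 8 of the 9 measured members, all except Avil. The third, from the second Lrp1 probe to Hsd17b6, averaged 1.02 over 27 probes. On the linear scale the A18 ratios of the middle-part members ran from 2.04 for Os9 to 3.35 for Cyp27b1, with Ddit3 at 2.28, Tspan31 at 2.36 and Gli1 at 3.12. Avil, in the first part, was at 2.15, within that range, so the step is one of part means and not of each member.

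The same probes behaved otherwise in the other 10 tumours. The median of the middle part was below that of the third part in all 10, by 0.23 ± 0.05 (SD, n = 10), whereas in A18 it was above it by 0.43. The middle part averaged -0.17 ± 0.12 (SD, n = 10) over those tumours and the third part 0.06 ± 0.15. Probe by probe, the median A18 value minus the mean of the others was 1.13, 1.69 and 0.99 in the 3 parts. The step within A18 was thus larger relative to the other tumours than on its own scale. The breaks were placed on A18 itself, and this step has no replicate array.

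**Figure D2:**
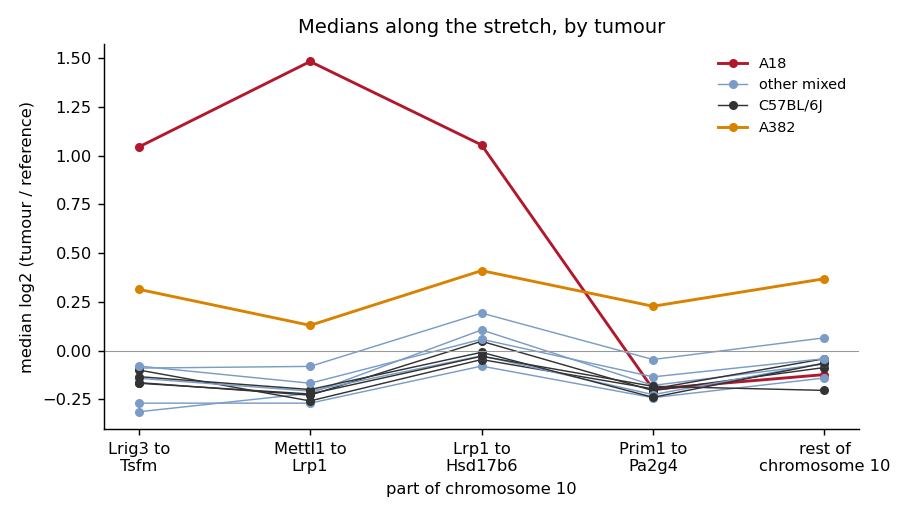
Median log2 ratio (vertical axis) of the probes in the 3 parts of the A18 segment, the distal remainder of the stretch and the rest of chromosome 10, with 1 line per tumour. A18 is highest from Mettl1 to Lrp1, where the other 10 tumours are lower than from Lrp1 to Hsd17b6.

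Single genes varied within each part. In the middle part Os9 read 1.03, Shmt2 1.08, Arhgap9 0.81 and Stac3 0.60, and in the outer parts Rdh16 read 1.35 and Tac2 1.21. Of the stretch genes with at least 2 probes, the highest in A18 were Pip4k2c, a phosphoinositide kinase, at 1.75, Inhbc, an inhibin beta subunit of the transforming growth factor family, at 1.66, and the member Kif5a at 1.63, all in the middle part. The lowest were Ankrd52 at -0.66, Pan2 at -0.46 and Rbms2 at -0.31, all beyond Prim1. Ankrd52, a subunit of a protein phosphatase complex, read -0.63 ± 0.17 (SD, n = 10) in the other tumours as well, so A18 did not stand apart from them there. Lrp1, an endocytic receptor, averaged 1.24, and Stat6, the transcription factor of interleukin signalling, averaged 0.93.

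Per tumour, the median of the 114 probes was 0.96 in A18, with quartiles of -0.06 and 1.29 because the distal part was not raised. It was 0.22 in A382 and 0.01 in A202. In 231 Trig it was -0.16, in A390 -0.22, in A292 -0.18 and in A394 -0.11. On C57BL/6J it was -0.15 in B86, -0.18 in B91, -0.17 in B96 and -0.18 in B76. A18 lay apart from all others, A382 was the only other tumour clearly above 0, and the 4 C57BL/6J tumours lay between -0.18 and -0.15.

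**Figure D3:**
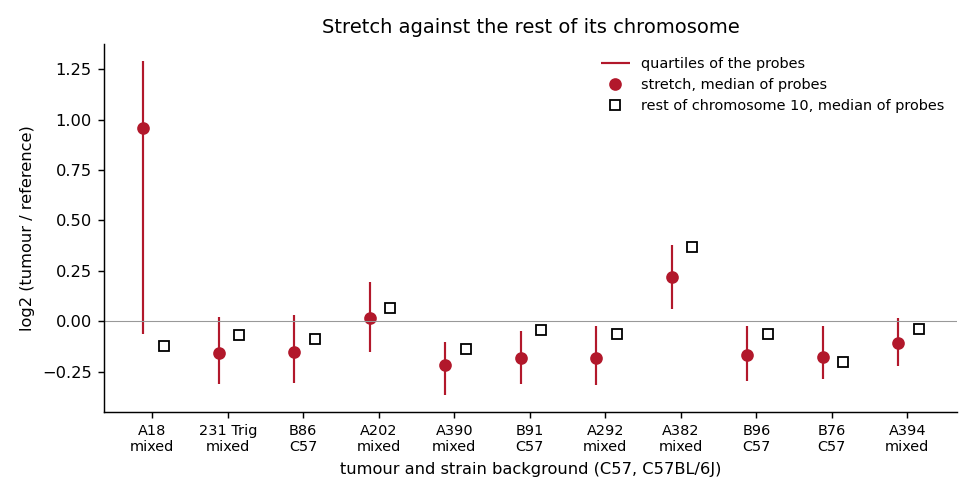
Median log2 ratio (vertical axis) of the 114 stretch probes, with quartiles, and of the other 1914 probes of chromosome 10, for each tumour (horizontal axis, with strain background). A18 is at 0.96 against -0.12 for the rest of its chromosome, and A382 is at 0.22 against 0.37.

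The rest of chromosome 10 separated A18 from A382. In A18 it had a median of -0.12, so the stretch stood 1.08 above its own chromosome. In A382 it had a median of 0.37, so the stretch lay 0.15 below its chromosome although above 0. At the penalty of 40 for a break, the A382 segment over the stretch had a mean of 0.31. It ran from Irak3, an interleukin-receptor kinase, at 119580093 to the last probe of the chromosome at Tespa1, 10.2 Mb, far past the limits of the A18 segment. At the penalty of 80 the A382 segment ran from 81746564 to the same end, 48.0 Mb, with a mean of 0.39. Its passages gave the same picture: the stretch lay at 0.20 at passage 8 and 0.23 at passage 9, and the rest of the chromosome at 0.35 and 0.39.

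In 9 of the 10 tumours other than A18 the stretch was slightly below the rest of its chromosome, on average by -0.08 ± 0.05 (SD, n = 10), and B76 was the exception at 0.03. At the penalty of 40 only B91 had a segment of its own there, from Lrig3 to Itga7, an integrin subunit, with a mean of -0.17. At the penalty of 20, 6 tumours had a break within the stretch or up to 1 Mb before it (A390, B91, A292, A382, B96 and A394). All were on slides 2 and 3, where 7 of the 10 lay, and none of the 3 on slide 1 had one. A382 and A394 split further, and a part from 127125349 to 127474194 read 0.46 in A382 and 0.11 in A394. The parts on either side of it read 0.17 and 0.17 in A382 and -0.16 and -0.13 in A394. Adjusting each array for probe GC content left the mean difference at -0.08 ± 0.05 (SD, n = 10). In the reference channel alone, adjusted for GC content, the probes of the A18 segment read 0.20 ± 0.06 (SD, 12 arrays) above the array's autosomal median, against 0.27 ± 0.10 for the stretch beyond that segment and 0.02 ± 0.01 for the rest of chromosome 10. In the tumour channel, adjusted likewise, the probes of the A18 segment read 0.18 ± 0.15 (SD, 11 arrays without A18). A382 entered this mean with both of its arrays, at 0.44 and 0.48, and the remaining arrays read 0.04 to 0.21. Both channels were thus above the median there. The same reference DNA source and probes were used on every array, and the part of either in the small differences was not tested.

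Gli1, the hedgehog transcription factor, read 1.64 in A18. On the mixed background it read -0.28 in 231 Trig, -0.11 in A202, -0.44 in A390, -0.37 in A292, 0.14 in A382 and -0.28 in A394. On C57BL/6J it read -0.31 in B86, -0.34 in B91, -0.41 in B96 and -0.33 in B76. A18 stood far above the next tumour, A382, and the other 9 were all below 0. Over the 10 tumours Gli1 fell, with a mean of -0.27 (SE 0.05, limma with Benjamini-Hochberg adjustment over 19984 genes, adjusted p = 0.000668). A gene was said to rise or fall where its adjusted p was under 0.05 and its mean at least 0.2 in size.

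**Figure D4:**
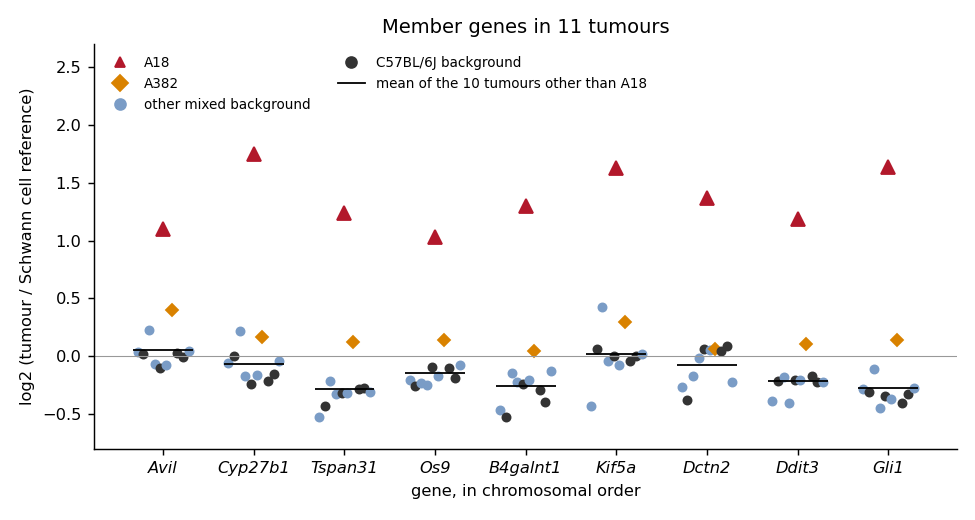
Log2 ratio (vertical axis) of the 9 measured members in chromosomal order, with 1 point per tumour and a bar at the mean of the 10 tumours other than A18. A18 lies between 1.03 and 1.75 for every member, and all other points lie between -0.53 and 0.43.

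Cdk4 itself has no value, and its neighbours bracket it. The Marchf9 probe, of a membrane-bound ubiquitin ligase, read 1.64 in A18 and -0.13 ± 0.16 (SD, n = 10) elsewhere. Tspan31, a tetraspanin first described as amplified in human sarcoma, read 1.24 in A18, -0.53 in 231 Trig, -0.22 in A202, -0.33 in A390, -0.32 in A292, 0.12 in A382 and -0.31 in A394. In the C57BL/6J tumours it read -0.43 in B86, -0.31 in B91, -0.28 in B96 and -0.27 in B76. Both probes were thus raised in A18, and their highest value elsewhere was 0.22, for Marchf9 in A382. Tspan31 fell over the 10 tumours (mean -0.29, SE 0.05, limma adjusted p = 0.000397).

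Ddit3 encodes the transcription factor CHOP of the endoplasmic reticulum stress response. It read 1.19 in A18, -0.39 in 231 Trig, -0.18 in A202, -0.41 in A390, -0.21 in A292, 0.10 in A382 and -0.22 in A394. On C57BL/6J it read -0.21 in B86, -0.20 in B91, -0.17 in B96 and -0.22 in B76. As for Gli1, A18 and A382 lay above 0 and the others below. The order among those others differed: B96 was among the lowest for Gli1, at -0.41, and the highest of them for Ddit3. Its probes, under 1 kb apart, read 1.43 and 0.95 in A18 and averaged -0.32 and -0.10 in the other tumours, so the spread between probes of a gene was as large as most differences between those tumours. Ddit3 fell over the 10 tumours (mean -0.21, SE 0.05, limma adjusted p = 0.00177), close to the size limit. With the mode of each array in place of the median the mean was -0.19, and it was -0.19 without 231 Trig, without A390 and without slide 1, which ended the call.

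Os9, a lectin that delivers misfolded glycoproteins to degradation from the endoplasmic reticulum, had the lowest member value in A18, 1.03. In the others it ranged from -0.26 in B86 to 0.14 in A382, with a median of -0.18, and 9 of 10 were below 0. Its mean of -0.14 (SE 0.04, limma adjusted p = 0.0134) did not reach the size limit. Averaged with neighbouring probes by a running median of 5, it passed at -0.20, while Ddit3 at -0.16 and Tspan31 at -0.15 then did not.

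Kif5a, a neuronal kinesin heavy chain that carries cargo along axons, read 1.63 in A18. In the others it ranged from -0.43 in 231 Trig to 0.43 in A202, with a median of 0.00. Those extremes came from slide 1, and the 231 Trig value rested on 1 of its probes because the other was missing there. Its probes differed in A18, at 1.31 and 1.95, and in the other tumours the order was reversed, with means of 0.21 and -0.10. The mean over the 10 tumours was 0.02 (SE 0.06, limma adjusted p = 0.799) and did not pass the test.

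Dctn2, the dynamitin subunit of the dynactin complex that links dynein to its cargo, read 1.37 in A18 with both probes. In the others it ranged from -0.38 in B86 to 0.08 in B76, with a median of 0.02, and its mean of -0.07 did not pass (SE 0.05, limma adjusted p = 0.250). One probe read between -0.38 and 0.06 in the 10 tumours. The other read -0.41 to -0.08 in the 3 tumours of slide 1, 0.06 to 0.49 in the 4 of slide 2 and -0.17 to 0.55 in the 3 of slide 3. The 0.06 is that of A382, counted under slide 2 although its mean includes the passage 9 array on slide 3.

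B4galnt1, the enzyme that builds complex gangliosides of nerve membranes, read 1.30 in A18. In the others it ranged from -0.52 in B86 to 0.05 in A382, with a median of -0.23. It fell over the 10 tumours, with a mean of -0.26 (SE 0.05, limma adjusted p = 0.000993).

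Cyp27b1, the hydroxylase that makes the active form of vitamin D, had the highest member value in A18, 1.75. In the others it ranged from -0.24 in B91 to 0.21 in A202, with a median of -0.11 and a mean of -0.07 (SE 0.05, limma adjusted p = 0.280). Avil, the actin-binding protein advillin of sensory neurons, read 1.10 in A18, 0.40 in A382, 0.23 in A202 and between -0.10 and 0.04 in the remaining 8. Its mean of 0.05 (SE 0.05, limma adjusted p = 0.411) did not pass either.

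Of the 9 members, 4 fell over the 10 tumours (Gli1, Tspan31, B4galnt1 and Ddit3), none rose and 5 did not pass, beside 15.2% of all genes that fell and 17.8% that rose. The median of the member means was -0.14, against -0.01 for all genes. A382 was the highest of the 10 for 6 members, and all 9 members were above 0 in it, whereas all 9 were below 0 in A390. Gli1, Tspan31 and B4galnt1 rest on 1 probe each. With all 11 tumours in the fit, A18 included, no member passed, and within slides 1, 2 and 3 alone 2, 0 and 0 members fell, on 3 or 4 tumours each.

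The probes of the segment kept much the same pattern across the 10 tumours: over its 75 probes the 45 pairs of tumours had a median Pearson r of 0.71, from 0.45 to 0.94. The mean of the 10 and A18 had an r of 0.05. These correlations are a description across probes, which share the reference DNA, the probe sequence and each array's normalisation. Of 70 probes measured in all 10, 5 were below 0 in every one and 7 above 0 in every one. Of the 71 genes in the stretch, 22 fell and 3 rose, beside 15.2% and 17.8% of all genes; those that rose were Tac2, which encodes a tachykinin, and the retinol dehydrogenases Rdh16 and Rdh19, all in the third part of the A18 segment.

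No member passed the test between strain backgrounds. Between the 6 mixed tumours without A18 and the 4 C57BL/6J tumours, differences ran from -0.05 for Dctn2 (SE 0.11) to 0.18 for B4galnt1 (SE 0.10), with limma adjusted p from 0.556 to 0.955. Gli1 differed by 0.12 (SE 0.11) and Ddit3 by -0.02 (SE 0.10). None of the 9 had an unadjusted p under 0.05, against 9.62% of all genes, and 0.02% of genes passed. On simulated data at this group size 4 of 100 changes of 0.3 were recovered, so differences of that size were mostly not detectable.

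Mdm2, Hmga2, Frs2 and Erbb3, growth-related genes of the human region and its neighbourhood, lay outside the A18 segment in the mouse. Mdm2, the ubiquitin ligase of p53, lies at 117133007 and read -0.17 in A18. Hmga2, a chromatin protein, read -0.05 and Frs2, an adaptor of growth factor receptors, -0.10. Erbb3, a neuregulin receptor, lies just past the end of the stretch, from 128023202, and read 0.09. Of 20 measured homologs of the human 12q13-q15 genes, 7 read 0.5 or more in A18, all within the segment, beside 9.42% of all genes. The stretch was chosen by its A18 values, so nothing is read from that count. Over the other 10 tumours 2 of the 20 homologs rose (Erbb3 at 0.22 and Grip1 at 0.20) and 6 fell. Those that fell included Shmt2 at -0.42, Lrp1 at -0.35, Tsfm at -0.32 and Dyrk2 at -0.30. Cdk2 was on the list and had no probe of its name.

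Of 19 measured genes of the hedgehog pathway, 3 rose, 4 fell and 12 did not pass over the 10 tumours, with a median of -0.02, beside 17.8% of all genes that rose and 15.2% that fell. These shares are also the background of the counts of the other lists, none of which was tested as a set. Besides Gli1, the transcription factor Gli3 fell by 0.44 on the log2 scale, the coreceptor Gas1 by 0.42 and the receptor Ptch1 by 0.21. Gli3, Gas1 and Ptch1 all lie on chromosome 13. Spop, on chromosome 11, rose at 0.56, and Bcl2 and Ihh, both on chromosome 1, rose at 0.30 and 0.24. Whether genes of the same chromosome changed together was not tested. Smo, the signal transducer, averaged -0.15, the inhibitor Sufu -0.21 and Gli2 0.08, and none of them passed. In A18, Gli1 and Spop were the pathway's only genes at 0.5 or more, and Spop lies on the chromosome 11 that was broadly raised there. Gli3 read -0.73 in A18, Sufu -0.79, Gli2 -0.40 and Ptch1 -0.32.

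Of 13 measured partners of Cdk4 and genes of the Rb pathway, Cdkn2a alone passed, and it fell. Cdkn2a encodes p16, the inhibitor of Cdk4, and lies on chromosome 4 at 88934358 to 88938124 as covered by 2 probes. It read -0.06 in A18, -4.57 in 231 Trig, -5.19 in B86, -0.42 in A202, -0.17 in A390 and -3.35 in B91. It read -0.97 in A292, -3.60 in A382, -3.31 in B96, -0.09 in B76 and -3.52 in A394. Thus 6 of the 10 tumours were below -1, and A18, with the raised stretch, was not among the deeply lowered ones. A single tumour with the raised stretch allows no test of this. In A18 the cyclins Ccnd1, Ccnd2 and Ccnd3 read 0.21, 0.11 and 0.34, Cdk6 read 0.18 and Rb1 read -0.58; over the 10 tumours they averaged -0.17, -0.08, 0.08, 0.15 and -0.04, and none passed.

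Of 13 measured genes of the endoplasmic reticulum stress list, 3 rose and 4 fell, beside 17.8% and 15.2% of all genes. Ern1 and Xbp1, a stress sensor and its target, both on chromosome 11, rose at 0.62 and 0.35, and the sensor Eif2ak3 rose at 0.26. Trib3, Ppp1r15a and Atf4 fell by 0.43, 0.35 and 0.34 on the log2 scale, as did Ddit3. Of 15 genes of vesicle motors and dynactin, Dctn3 at -0.40 and Kif5b at -0.20 fell and the other 13 did not pass. In the vitamin D list 1 of 6 fell, the nuclear receptor Rxra at -0.29. In ganglioside synthesis 2 of 8 rose, St8sia1 at 0.32 and B3galt4 at 0.21, and 4 fell, B4galt6 at -0.73, Ugcg at -0.51, B4galnt1 at -0.26 and St3gal2 at -0.23.

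Many of these calls rest on 1 or 2 probes. When each probe was replaced by the running median of 5 neighbours, Lrp1, Dyrk2, Gli3, Gas1, Spop, Cdkn2a, Ern1, Xbp1, Eif2ak3, Trib3, Kif5b, St8sia1, Ugcg, B4galt6 and St3gal2 passed again in the same direction. Shmt2, Tsfm, Grip1, Ptch1, Ihh, Bcl2, Atf4, Ppp1r15a, Dctn3, Rxra, B3galt4 and Erbb3 did not pass, and of these Atf4 at 0.13, B3galt4 at -0.08 and Erbb3 at -0.05 had then changed sign.

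Likeness to the stretch medians across the 11 tumours, A18 included, was measured for 2446 of the 19984 genes, those with at least 3 probes outside chromosome 10. The mean absolute difference had a median of 0.27. The nearest on 5 different chromosomes were Uevld on chromosome 7 at 0.13, BC043686 on 18 at 0.15, and Gpr176 on 2, P2rx7 on 5 and Car14 on 3 at 0.17. In A18 these read 0.34, -0.09, -0.28, -0.02 and 0.31, against 0.96 for the stretch.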

How the data were processed

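The 12 Agilent arrays compared Cy5-labelled tumour DNA with Cy3-labelled reference DNA. The deposited values are log10 ratios, tumour to reference, per the file headers, already corrected for background and dye by the scanner software; the deposited files also give the intensity of each channel. Agilent Feature Extraction 9.5 and build mm9 are given in the submitters' processing notes. The authors' value table held the same log10 ratios.

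After conversion to log2, control spots were left out (43020 spots left), non-uniform and population outlier spots were set to missing (0.0604% to 1.99% per array), and spots of a probe were averaged. Arrays were centred on the median of 40726 autosomal probes. None of the spots was saturated, and 99.4% or more per array were well above background. Symbols were updated by RefSeq accession (28951 of 29337 probes), and gene order around Cdk4 is that of RefSeq. Precision is limited by the number of arrays.

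The tests used limma 3.58.1 (R 4.3.3), over the 10 tumours against 0 and between strain backgrounds. On simulated data with 200 changed genes the 10-tumour test recovered 78 of 100 changes of 0.3 and 97 of 100 of 0.6, and the strain test 4 and 58. Segments came from a least squares fit in which each break cost 40 noise variances, with at least 5 probes, on values clipped at 3 noise SD around a running median of 5 probes. Figures and tables used Python 3.11.15 and pandas 2.3.3.

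The members and gene lists were chosen with earlier results of these data known. Named genes are the members, fixed 12q13-q15, hedgehog and cell cycle genes, the 3 highest and 3 lowest genes of the stretch in A18 with at least 2 probes, genes at segment edges, up to 4 passing genes of each list and the 5 nearest genes in pattern. Other genes named (Ctdsp2, Arhgap9, Stac3, Ihh, Eif2ak3, Atf4, B3galt4, St3gal2, Grip1, Pa2g4, BC036180, Marchf9, Tac2, Rdh16 and Rdh19, and those of the other A18 segments) were chosen after their values were seen. Alternatives were mode centring, normexp, keeping marked spots, running medians, gene medians, single passages of A382, omission of each tumour or of slide 1, slide as a block, single slides and, added after seeing the data, adjustment for GC content.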

Additional observations from a re-analysis of the deposited data

Results flagged for a closer look

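In the mixed background of 7 tumours, A18 lay far from the nearest of the others for the stretch median (0.96) and for each of the 9 measured members: 1.64 for Gli1, 1.19 for Ddit3, 1.63 for Kif5a, 1.03 for Os9, 1.37 for Dctn2, 1.30 for B4galnt1, 1.10 for Avil, 1.75 for Cyp27b1 and 1.24 for Tspan31. The stretch was chosen on A18, so this restates the choice and is no test. In the C57BL/6J background of 4, B86 lay apart for Dctn2 at -0.38 by Dixon's criterion, 1 of 10 values examined there, where chance gives about 1 in 20. B86 is the only C57BL/6J tumour on slide 1. It stood apart on 1 Dctn2 probe, at -0.41 against 0.49 in B91, 0.44 in B96 and 0.55 in B76. On the other Dctn2 probe B86 did not stand apart, at -0.34 against -0.37, -0.35 and -0.38 in those tumours. The Dctn2 probe with the wider spread read -0.41 to -0.08 in the 3 tumours of slide 1 other than A18. It read 0.06 to 0.49 in the 4 of slide 2 and -0.17 to 0.55 in the 3 of slide 3. Slide 1 thus overlapped slide 3 but not slide 2, and the part of the slide was not tested.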

How the results depend on the processing

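The A18 results (stretch median 0.95 to 1.01, stretch minus the rest of chromosome 10 1.07 to 1.13, 9 members at 0.5 or more) stayed within the spread between tumours under each alternative run for them. The segment over Gli1 in A18 had a mean of 1.22 with penalties of 40 and 80 and 1.45 with 20, where it splits. The mean stretch median over the other tumours was -0.15 to -0.10 with 1 tumour left out. The count of members that fell, 4, was 3 or 4 with 1 tumour left out, 2 within slide 1, 0 within slide 2, 0 within slide 3 and 0 with all 11 tumours, where fewer tumours or A18 itself enter the fit. No strain alternative gave a passing member. Sign changes, none past the threshold, came for 9 of 225 member values in the 10-tumour test: Kif5a at -0.12 with running medians and -0.023 to 0.072 with 1 tumour left out, Avil at -0.10 with running medians, Dctn2 at 0.0089 without slide 1, 0.040 within slide 2 and 0.057 with all 11, and Cyp27b1 at 0.052 within slide 1 and 0.10 with all 11. In the strain test there were 19 of 216. Ddit3 gave 0.075 with running medians, 0.015 without slide 1, 0.039 within slide 2, 0.12 within slide 3, 0.19 with A18 and -0.079 to 0.023 with 1 tumour left out. Kif5a gave -0.013 with mode centring, -0.024 with normexp, -0.064 within slide 1 and -0.051 to 0.12 with 1 left out. Os9 gave -0.011 with mode centring and -0.025 to 0.053 with 1 left out, Dctn2 gave 0.12 with running medians, 0.16 within slide 1 and 0.16 with A18, and Tspan31 gave -0.013 to 0.12 with 1 left out. The cause of these changes was not tested. Over all genes, 3034 fell, 1527 with running medians and 1346 within slide 1; 3550 rose, 1993 within slide 1. The 4 genes passing the strain test were 0 to 69 across alternatives. No paired analysis was possible because the replicate numbers only name tumours.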
